A study of Mus musculus with 6 samples.

Results

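The imprinted genes described here are 35 mouse genes known to be transcribed, in at least some tissues, mainly from the copy inherited from a single parent. They were taken by symbol from a table of 23290 entries that compares Casz1 mutant with control embryonic hearts. Each gene was found through the RefSeq accessions of its entry, except H19, whose accession is not in the RefSeq table used and which was found by its position. Of the 35 genes, 33 were tested in the authors' deposited table. Among these, 30 had an entry of their own, and 3 (Meg3, Mirg and Snrpn) stood in entries that join several gene symbols and are described apart. The other 2, Igf2 and H19, were marked as holding too many fragments to be tested and have no usable value. By expressed parental copy 21 genes are paternal and 14 are maternal, and they lie in 16 clusters or single loci. The parental copy is textbook background for the mouse embryo and was not measured, since the table does not separate alleles.

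RNA was sequenced from 6 individual hearts at E10.5. The 3 mutant hearts carried Nkx2-5Cre/+ and Casz1f/f, that is, Cre recombinase at an Nkx2-5 allele and floxed alleles of the zinc finger factor Casz1 on both chromosomes. The 3 control hearts, called wild type in the labels, were Nkx2-5+/+ and Casz1f/+, so a floxed Casz1 allele is present in both genotypes while Cre and the altered Nkx2-5 allele occur in the mutants only. All mice had a C57BL/6 background, and the Cre acts only in cells in which Nkx2-5 has been active, so other cells of the mutant heart are not targeted.

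Imprinted genes carry methylation marks laid down in the egg or the sperm, and these marks decide which parental copy is read after fertilisation. They sit in clusters in which a control region often silences protein-coding genes on the same chromosome through a long noncoding RNA or an insulator. Many of them act on fetal growth: paternally expressed genes such as Igf2 tend to promote it, and maternally expressed genes such as Igf2r and Grb10 tend to restrain it. In the embryo many are abundant in mesoderm and mesenchyme, the heart included, and their level falls after birth.

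Promoter sequences of Mest, the most abundant of the 33 tested genes, and of Peg3, whose window overlaps that of Usp29, are shown first as examples of imprinted starts. ZFP57, a zinc finger protein, keeps imprints by binding the methylated hexamer TGCCGC. In RefSeq promoter windows (GRCm38.p6, 250 bases before to 50 after each start), 29 of the 35 genes had a window. The hexamer was searched on both strands, hits that overlap included. It occurred in 10 of these 29 genes (34.5%), against 13.1% of all 27025 genes with a window. The 29 genes have 45 windows, and per window the shares were 24.4% in members and 11.6% in all 32851 windows. The hexamer holds a CG, and the median number of CG dinucleotides was 13 in member windows and 7 in all windows. A match is a description of letters and not a bound site. Mest is shown in its window with 2 matches at chr6:30737800-30738099 (plus strand), with the hexamer or its reverse complement in capitals.
Mest: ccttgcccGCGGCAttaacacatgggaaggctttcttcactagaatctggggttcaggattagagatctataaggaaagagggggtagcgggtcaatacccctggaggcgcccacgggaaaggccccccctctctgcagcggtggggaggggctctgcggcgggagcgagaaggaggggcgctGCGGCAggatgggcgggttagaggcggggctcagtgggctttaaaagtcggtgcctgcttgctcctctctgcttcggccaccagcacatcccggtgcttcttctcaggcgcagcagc
Peg3 and Usp29 are transcribed head to head, and their windows share 263 bases. The Peg3 window at chr7:6730370-6730669 (minus strand) is shown with its 13 CG dinucleotides, the sites that can carry methylation, in capitals. It holds 0 copies of the hexamer.
Peg3: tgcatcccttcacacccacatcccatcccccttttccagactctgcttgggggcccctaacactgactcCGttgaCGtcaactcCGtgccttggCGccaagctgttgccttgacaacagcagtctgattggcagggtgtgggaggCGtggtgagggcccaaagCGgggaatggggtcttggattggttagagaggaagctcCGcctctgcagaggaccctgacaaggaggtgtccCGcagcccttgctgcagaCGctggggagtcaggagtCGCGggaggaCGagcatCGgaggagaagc

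Several microRNAs are processed from the maternal noncoding RNAs, and the authors' entries join some of them to their host. The Meg3 entry joins 3 symbols, among them Mir770, and the Mirg entry includes Mir412, Mir369 and Mir410. Their mature sequences from RefSeq (GRCm38.p6, all on chromosome 12) are shown because a value of the joined entry cannot be assigned to the host or the microRNA. Capitals mark the seed, bases 2 to 8, and the 8 seeds are all different.
miR-770-5p: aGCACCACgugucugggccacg
miR-770-3p: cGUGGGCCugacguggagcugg
miR-412-5p: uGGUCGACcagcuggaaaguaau
miR-412-3p: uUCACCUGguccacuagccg
miR-369-5p: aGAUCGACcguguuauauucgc
miR-369-3p: aAUAAUACaugguugaucuuu
miR-410-5p: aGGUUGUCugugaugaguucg
miR-410-3p: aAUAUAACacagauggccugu

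Levels are in FPKM, a fragment count divided by the length of the transcript and by library size. Each genotype has a single pooled FPKM per entry, so the spread between hearts and the depth of each library are unknown here. The authors' deposited table is the source of all levels, fold changes, p and q that follow, log2 fold changes are mutant over control, and the standard error (SE) is the one implied by the authors' test statistic. The targeted gene Casz1 stood at 4.68 FPKM in mutant and 6.61 FPKM in control hearts (q = 1.00), and Nkx2-5 at 82.9 FPKM in mutant and 143.0 FPKM in control hearts (q = 0.536). Cardiomyocyte markers were abundant in both pools (summed FPKM of 8 markers 18612 in mutant and 19053 in control hearts). Markers of foregut and pharyngeal epithelium were low, and 6 of 7 rose at q under 0.05 (summed FPKM 18.1 in mutant and 3.48 in control hearts). Of the 5 smooth muscle markers 2 rose at q under 0.05. These were Actg2 (7.72 FPKM in mutant and 1.37 FPKM in control hearts) and Lmod1 (14.2 FPKM in mutant and 4.12 FPKM in control hearts). Tagln (767 FPKM in mutant and 333 FPKM in control hearts) and Myh11 (0.931 FPKM and 0.326 FPKM) stood higher but were not called. Cnn1 stood lower, at 96.0 FPKM in mutant and 132 FPKM in control hearts. Of the endothelial, epicardial, mesenchymal, hepatic and neural markers tested 0 passed, and 1 of 4 tested blood markers, Lyz2, fell. Embryo sex is not stated in the labels, and Xist, the RNA of the inactive X chromosome, was called at 0.0238 FPKM in mutant and 10.1 FPKM in control hearts. Y-linked genes were present in both pools and not called: Ddx3y read 10.1 FPKM in mutant and 6.50 FPKM in control hearts, and Eif2s3y 33.6 FPKM in mutant and 22.9 FPKM in control hearts. Kdm5d read 3.87 FPKM in mutant and 2.95 FPKM in control hearts, and Uty 2.93 FPKM in mutant and 2.25 FPKM in control hearts. The part of embryo sex in the members' values was not tested.

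No imprinted gene passed the authors' test. With Cuffdiff, 0 of the 30 genes rose and 0 fell at q under 0.05, and 2 had an unadjusted p under 0.05, Magel2 and Peg10, both with the higher level in mutant hearts. Over all 15387 tested entries 0.422% passed at q under 0.05 in either direction (0.305% higher and 0.117% lower), and 3.17% had an unadjusted p under 0.05 (1.99% higher and 1.18% lower). The count of 0 among 30 genes is near that background. The median log2 fold change of the 30 genes was 0.07, with 19 above 0 and 11 below. Over the 15301 tested entries with a finite fold the median was -0.02, and 45.3% lay above 0. With the 3 joined entries, all below 0, the median of the members was 0.03, with 19 above and 14 below (57.6% above). The fold changes ranged from -0.66 (Slc22a18) to 1.41 (Magel2), and 18 of the 30 were within 0.25 of 0. In 28 of 30 genes the 95% interval spanned 0, and in 15 it excluded both a doubling and a halving. In tissue that mixes cell types, fewer cells of a type and less RNA per cell cannot be told apart.

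**Figure D1:**
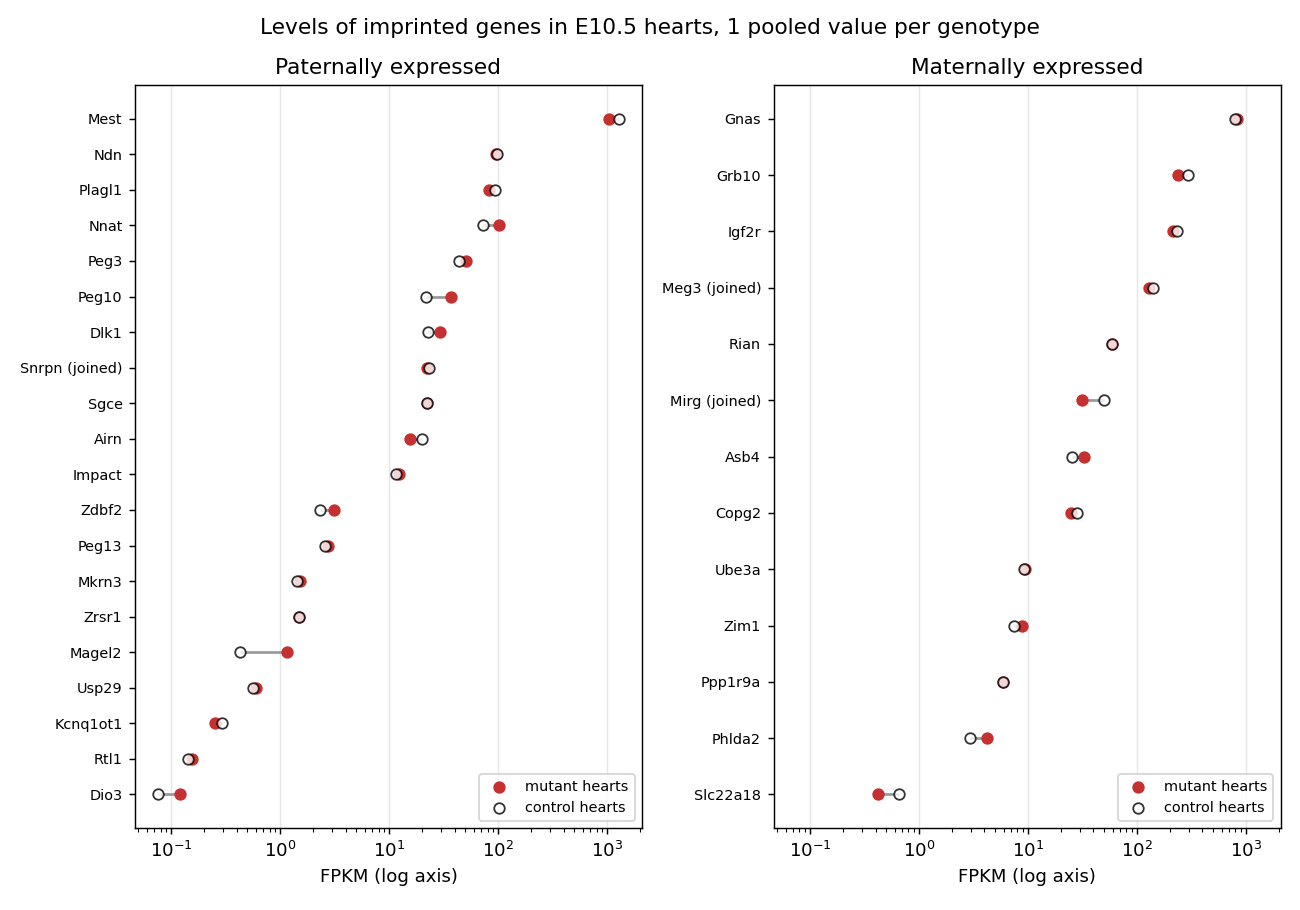
FPKM (log axis) of the 33 tested imprinted genes in mutant hearts (filled red) and control hearts (open), 1 pooled value per genotype with no error bar, split into paternally and maternally expressed genes and ordered by mean level. Most pairs of points nearly coincide, and Magel2, at 1.14 FPKM in mutant and 0.431 FPKM in control hearts, has the widest gap.

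The set spanned a wide range of levels. Mean FPKM was at least 100 in 5 of the 33 tested genes and at least 10 in 19, and it was under 1 in 6. Tested members made up 0.579% of summed FPKM in mutant and 0.641% in control hearts. The sum counts entries with too many fragments to be tested, such as Igf2 and H19, at the 0 listed for them. These percentages are therefore not shares of all heart RNA. Mest, a hydrolase of the endoplasmic reticulum, was the most abundant tested gene at 1041 FPKM in mutant and 1280.4 FPKM in control hearts, followed by Gnas at 825 FPKM in mutant and 792 FPKM in control hearts. The lowest tested level was that of the deiodinase gene Dio3, at 0.120 FPKM in mutant and 0.0760 FPKM in control hearts. In the plot of levels Mest and Dio3 stand at the ends of the paternal panel.

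Paternally expressed genes had a median log2 fold change of 0.10 over 19 entries, with 13 above 0 and 6 below. Maternally expressed genes had a median of 0.00090 over 11 entries, with 6 above 0 and 5 below, and the joined entries of Meg3 and Mirg, both below 0, turn it to -0.0068. Neither side held a call, and the difference between them was not tested. The maternal side counts Ube3a, whose imprint is known from neurons, and Gnas, whose locus also has paternal and biallelic transcripts. Of the 8 genes with the lowest unadjusted p, 7 stood higher in mutant hearts and 5 are paternally expressed.

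Magel2 had the lowest p of the set. It encodes a MAGE family protein that acts with ubiquitin ligases in endosomal sorting, and it lies on chromosome 7 from 62376979 to 62381640 in mm10. It read 1.14 FPKM in mutant and 0.431 FPKM in control hearts, a 2.66-fold difference (log2 1.41, SE 0.493, 95% interval 0.44 to 2.38, unadjusted p = 0.00426, q = 0.358 in the authors' deposited table). The level is low, and with a pseudocount of 1 FPKM its log2 fold change was 0.58. The foregut and pharyngeal epithelial markers counted above ranged from 0.648 FPKM (Foxa2) to 7.27 FPKM (Cldn6) in mutant hearts. They were higher in the same pool, and their part in the Magel2 value was not tested. Its neighbours stood close to 0. Ndn, another MAGE family gene, read 95.4 FPKM in mutant and 97.4 FPKM in control hearts (log2 -0.03, 95% interval -0.59 to 0.53), so the Ndn level was 83.3 times that of Magel2 in mutant and 226 times in control hearts. Mkrn3, a makorin with a ring finger, read 1.53 FPKM in mutant and 1.44 FPKM in control hearts. Ube3a, a ubiquitin ligase whose imprint is known from neurons, read 9.46 FPKM in mutant and 9.30 FPKM in control hearts (log2 0.03). The entry that joins Snrpn, a spliceosomal protein gene, with Snurf read 22.3 FPKM in mutant and 23.2 FPKM in control hearts (log2 -0.06).

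Peg10 had the next lowest p. It derives from a retrotransposon and is needed for placental development, and it lies on chromosome 6 from 4747306 to 4760516. Its level was 37.1 FPKM in mutant and 21.8 FPKM in control hearts, a 1.70-fold difference (log2 0.77, SE 0.334, 95% interval 0.11 to 1.42, unadjusted p = 0.0217, q = 1.00 in the authors' deposited table). The entry of Sgce, the epsilon-sarcoglycan gene, ends 101 bases away, and Sgce is also read from the paternal copy. It stood at 22.1 FPKM in mutant and 22.2 FPKM in control hearts (log2 -0.0059, 95% interval -0.57 to 0.56). The intervals of the 2 genes overlap, and the difference between them was not tested. On the maternal side of the cluster Ppp1r9a, which encodes the actin-binding neurabin, read 5.92 FPKM in both pools (log2 0.00090). Asb4 (chromosome 6, 5383386 to 5433022), a substrate adaptor of ubiquitin ligases known from vascular development, read 33.1 FPKM in mutant and 25.5 FPKM in control hearts (log2 0.38, SE 0.282, 95% interval -0.18 to 0.93, unadjusted p = 0.181 and q = 1.00 in the authors' deposited table).

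**Figure D2:**
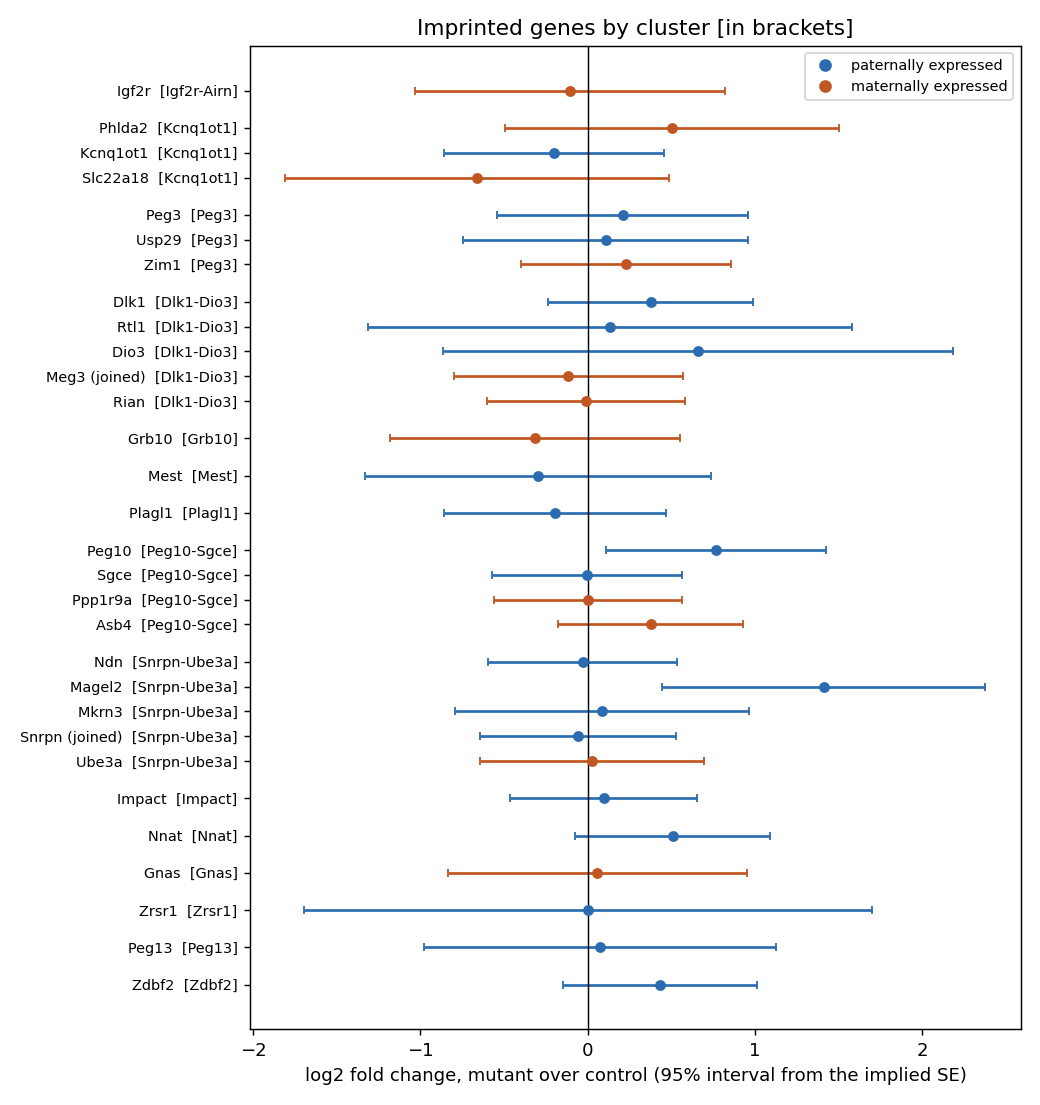
Log2 fold change (mutant over control) with 95% intervals from the implied SE, for the 30 tested imprinted genes whose SE is at most 1, ordered by cluster and coloured by the expressed parental copy. The intervals of Magel2 (0.44 to 2.38) and Peg10 (0.11 to 1.42) lie above 0, while their neighbours Ndn and Sgce sit at 0; Airn, Copg2 and Mirg are left out for their wide errors.

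In the Dlk1-Dio3 cluster on chromosome 12 the 3 paternal protein-coding genes had fold changes above 0. The maternal noncoding RNAs had values below 0, of which Rian turned to 0.01 on centring and Mirg has too wide an error to be read. None of them passed. Dlk1 (chromosome 12, 109452485 to 109463336), a transmembrane protein related to Notch ligands, read 29.5 FPKM in mutant and 22.7 FPKM in control hearts (log2 0.38, SE 0.314, 95% interval -0.24 to 0.99, unadjusted p = 0.231 and q = 1.00 in the authors' deposited table). Rtl1, a retrotransposon-derived gene of fetal vessels and muscle, was low at 0.156 FPKM in mutant and 0.142 FPKM in control hearts. Its entry overlaps microRNA genes on the other strand, and reads of the 2 strands may not be separable since the labels do not say whether counting used strand. Dio3, which inactivates thyroid hormone, had a log2 fold change of 0.66 with an SE of 0.777 at the levels given above. Rian, a noncoding RNA that hosts small nucleolar RNAs, read 59.4 FPKM in mutant and 59.6 FPKM in control hearts (log2 -0.0068, 95% interval -0.60 to 0.58). The joined entry of the noncoding RNA Meg3 read 131 FPKM in mutant and 142 FPKM in control hearts (log2 -0.12, SE 0.348). The joined entry as a whole stood at 4.44 times the level of Dlk1 in mutant and 6.24 times in control hearts. The joined entry of the microRNA host Mirg read 31.1 FPKM in mutant and 50.1 FPKM in control hearts, with a log2 fold change of -0.69 and an implied SE of 6.71 that makes it unreadable.

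In the Peg3 cluster at the proximal end of chromosome 7 the fold changes of the 3 genes lay between 0.11 and 0.23. Peg3, a zinc finger protein linked to growth and maternal behaviour, read 50.8 FPKM in mutant and 43.9 FPKM in control hearts (log2 0.21, SE 0.382). Usp29, a ubiquitin protease gene whose annotated start lies in the window printed above, read 0.605 FPKM in mutant and 0.561 FPKM in control hearts (log2 0.11, SE 0.434). The Usp29 entry that was counted begins outside that window, at base 6730741. Peg3 stood at 83.9 times the level of Usp29 in mutant and 78.3 times in control hearts. Zim1, a zinc finger gene read from the maternal copy, stood at 8.82 FPKM in mutant and 7.52 FPKM in control hearts (log2 0.23, SE 0.320). An antisense transcript overlaps Peg3 and may share its reads.

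In the Kcnq1ot1 cluster at the distal end of chromosome 7 the 3 members were low, with fold changes on both sides of 0. Phlda2 (chromosome 7, 143501545 to 143503145), a PH domain protein that restrains placental growth, read 4.20 FPKM in mutant and 2.96 FPKM in control hearts (log2 0.50, SE 0.508, with a 95% interval that spans 0, unadjusted p = 0.321 and q = 1.00 in the authors' deposited table). Slc22a18 (chromosome 7, 143473726 to 143499334), a membrane transporter gene, read 0.419 FPKM in mutant and 0.662 FPKM in control hearts (log2 -0.66, SE 0.584, 95% interval -1.81 to 0.48, unadjusted p = 0.258 and q = 1.00 in the authors' deposited table). Kcnq1ot1, the paternal noncoding RNA whose transcription silences the cluster in cis, read 0.254 FPKM in mutant and 0.292 FPKM in control hearts (log2 -0.20, SE 0.335). It overlaps the potassium channel gene Kcnq1 on the other strand, which read 1.51 FPKM in mutant and 2.70 FPKM in control hearts. Cdkn1c, the maternally expressed CDK inhibitor of the same cluster, read 899 FPKM in mutant and 995 FPKM in control hearts (log2 -0.15).

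The genes around IGF signalling could be read only in part. Igf2, the fetal growth factor, and H19, its maternal noncoding neighbour, are listed at 0 with the status for too many fragments, which 65 entries of the table carry. These zeros are not levels. Igf2r, the receptor that takes IGF2 to lysosomes, read 216 FPKM in mutant and 233 FPKM in control hearts (log2 -0.11, SE 0.473). Airn, the paternal noncoding RNA that runs antisense through Igf2r, read 15.6 FPKM in mutant and 19.9 FPKM in control hearts with an implied SE of 81.1, so its fold change cannot be read. Grb10, an adaptor that damps insulin and IGF1 receptor signalling, read 237 FPKM in mutant and 295 FPKM in control hearts (log2 -0.31, SE 0.441, 95% interval -1.18 to 0.55). Of 15 IGF receptors, adaptors, binding proteins and mRNA-binding proteins, 0 rose and 0 fell, and 0 had an unadjusted p under 0.05. One of the 15, Igf2bp1, stands in an entry that joins 2 symbols. Its implied SE was 119, so its fold change cannot be read. Igfbp5, the most abundant of them, read 203 FPKM in mutant and 171 FPKM in control hearts (log2 0.24). Igfbp4 read 169 FPKM in mutant and 156 FPKM in control hearts. In the authors' deposited table the lowest unadjusted p belonged to Igfbp2 (p = 0.387, log2 0.25) and Igf2bp3, which encodes an mRNA-binding protein (p = 0.501, log2 0.19).

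Mest, with an estimated log2 of -0.30 (SE 0.528, 95% interval -1.33 to 0.74), shares its stretch of chromosome 6 with Copg2. Copg2, a coatomer subunit with mainly maternal expression, read 24.8 FPKM in mutant and 28.3 FPKM in control hearts, and with an SE of 3.97 its fold change cannot be read either. Mest stood at 42.0 times the level of Copg2 in mutant and 45.3 times in control hearts. Plagl1, a zinc finger factor that activates other imprinted genes, read 82.5 FPKM in mutant and 94.5 FPKM in control hearts (log2 -0.20, SE 0.338).

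The remaining loci hold a single gene of the set each. Nnat, a small membrane proteolipid best known from developing neurons, read 103 FPKM in mutant and 72.3 FPKM in control hearts (log2 0.51, SE 0.298, 95% interval -0.08 to 1.09, unadjusted p = 0.0887 and q = 1.00 in the authors' deposited table). The 4 neural markers tested went both ways and 0 of them passed. Tubb3 read 17.3 FPKM in mutant and 13.7 FPKM in control hearts, and Sox2 1.72 FPKM in mutant and 0.445 FPKM in control hearts. Sox10 stood lower, at 0.331 FPKM in mutant and 0.344 FPKM in control hearts, as did Elavl3, at 0.126 FPKM and 0.178 FPKM. The part of neural cells in the Nnat value was not tested. Nnat lies within Blcap (Nnat spans 157560078 to 157562525 on chromosome 2), which read 18.2 FPKM in mutant and 16.7 FPKM in control hearts (log2 0.13). Zdbf2 (chromosome 1, 63200358 to 63314576), a zinc finger gene that acts in the hypothalamus, read 3.14 FPKM in mutant and 2.33 FPKM in control hearts (log2 0.43, SE 0.295, 95% interval -0.15 to 1.01, unadjusted p = 0.144 and q = 1.00 in the authors' deposited table). Gnas, the stimulatory G protein gene, had a log2 fold change of 0.06 (SE 0.456), and its entry pools 8 accessions of a locus with maternal, paternal and biallelic transcripts. Impact, an inhibitor of the kinase GCN2, read 12.4 FPKM in mutant and 11.6 FPKM in control hearts (log2 0.10). Peg13, a noncoding RNA inside Trappc9, read 2.73 FPKM in mutant and 2.59 FPKM in control hearts (log2 0.08). Zrsr1, a splicing factor gene inside Commd1, read 1.48 FPKM in both pools (log2 0.0020, SE 0.867).

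**Figure D3:**
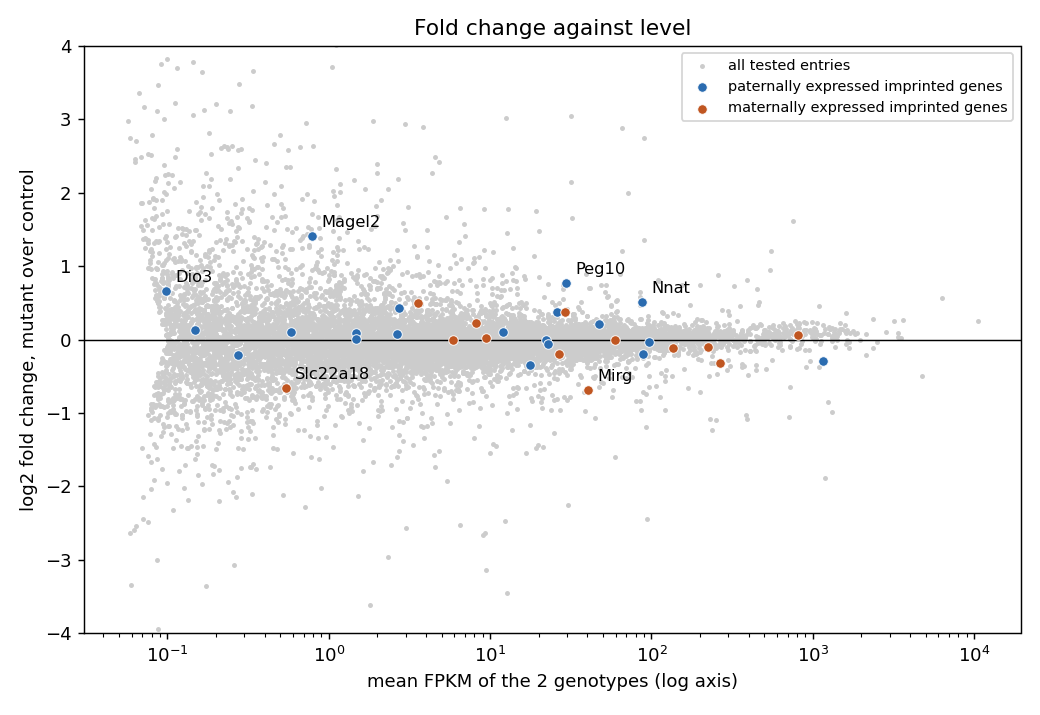
Log2 fold change (mutant over control) against mean FPKM (log axis) for the tested entries whose fold is finite (grey) and the 33 tested imprinted genes (coloured by expressed parental copy); 25 grey entries lie beyond a log2 of 4 either way and are not drawn. The imprinted genes lie inside the grey cloud, and Peg10 and Nnat lie toward its upper side among genes of similar level.

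The fold changes of the set were set beside those of other genes as a description. With no limit on level, the median absolute log2 fold change was 0.20 over the 30 genes, against 0.106 over the 15301 tested entries with a finite fold. In 6 of the 30 genes (20.0%) it was above 0.5, against 11.4% of those entries. No test over the list was made, and nothing particular to it is drawn from these shares.

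Of 48 other genes reported as imprinted in the mouse, 41 were tested, 1 of them (Snurf) in the Snrpn entry. Of the other 40, 2 of which have an implied SE over 1, 0 rose and 0 fell at q under 0.05, and 3 had an unadjusted p under 0.05. Their median log2 fold change was 0.0066. Cpa4, a carboxypeptidase near Mest, read 0.131 FPKM in mutant and 0.440 FPKM in control hearts (log2 -1.75, SE 0.592, unadjusted p = 0.00315 and q = 0.305 in the authors' deposited table). Dlx5, a homeobox gene beyond Asb4, read 1.16 FPKM in mutant and 0.294 FPKM in control hearts (log2 1.98, SE 0.782, unadjusted p = 0.0112 and q = 0.713 in the authors' deposited table). The third was Ddc, which makes dopamine and serotonin, lies next to Grb10 and is read from the paternal copy in embryonic heart. It stood at 10.8 FPKM in mutant and 18.0 FPKM in control hearts (log2 -0.73, SE 0.311, unadjusted p = 0.0186 and q = 0.924 in the authors' deposited table). Cdkn1c was the most abundant gene of this list, followed by Cd81, a tetraspanin at 168 FPKM in mutant and 195 FPKM in control hearts.

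Factors that write, read or keep imprints stood close to 0. Of 28 such genes 22 were tested, 0 rose, 0 fell and 0 had an unadjusted p under 0.05. Their median log2 fold change was -0.03, and 18 of the 22 lay within 0.1 of 0. Dnmt1, the methyltransferase that copies methylation at replication, read 48.1 FPKM in mutant and 52.7 FPKM in control hearts (log2 -0.13, unadjusted p = 0.662 in the authors' deposited table). Zfp57, whose hexamer is described above, read 27.2 FPKM in mutant and 27.3 FPKM in control hearts (log2 -0.0015, 95% interval -0.68 to 0.67). Its partner Trim28 was the most abundant at 174 FPKM in mutant and 173 FPKM in control hearts, and Rad21, a cohesin subunit, read 63.9 FPKM in mutant and 69.1 FPKM in control hearts. In the authors' deposited table the lowest unadjusted p of these factors was that of Ctcfl, a germline relative of Ctcf, at 0.334 FPKM in mutant and 0.428 FPKM in control hearts (p = 0.507).

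**Figure D4:**
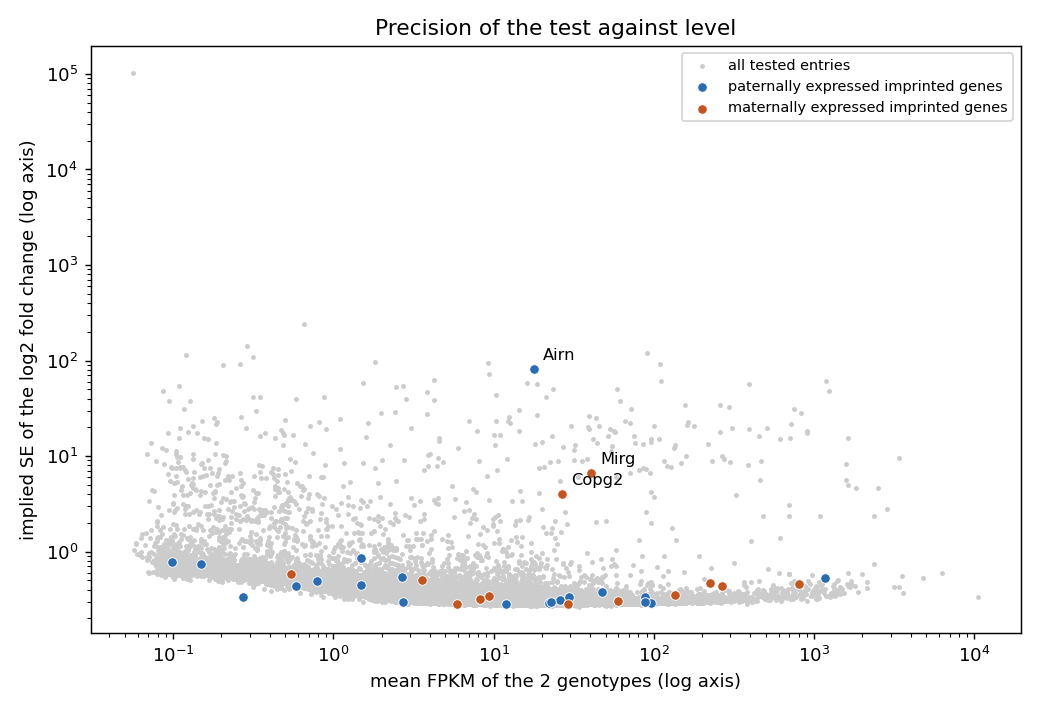
Implied SE of the log2 fold change (log axis) against mean FPKM (log axis) for the tested entries whose fold is finite (grey) and the 33 tested imprinted genes (coloured by expressed parental copy). Airn (81.1), Mirg (6.71) and Copg2 (3.97) stand far above the other members.

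The precision of the test differed widely among the members. An implied SE above 1 occurred in 5.85% of the tested entries with a finite fold. The members above 1 were Airn and Copg2, 2 of the 30 genes with an entry of their own, and the joined entry of Mirg. Each of these 3 overlaps another transcript or holds several, but so do members with an SE under 1. Igf2r (0.473) shares the stretch of Airn, and Mest (0.528) that of Copg2. The joined entries of Meg3 (0.348) and Snrpn (0.299) hold several symbols. What sets the SE was not tested. The median SE of the 30 genes was 0.408, against 0.343 over all tested entries with a finite fold.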

How the data were processed

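Total RNA of individual E10.5 hearts was sequenced, 3 mutant and 3 control. The submitters' processing notes name mm10, Cuffdiff, Cufflinks 2.1.1, TopHat2 2.0.8 with Bowtie2 2.1.0.0, FastQC 0.10.1 and SAMtools 0.1.19.0. The authors deposited a single Cuffdiff table. The authors gave 1 FPKM per entry for each genotype, per the file headers. Hearts are therefore pooled, and with depth unknown no counting intervals can be had. Library normalisation and dispersion settings are not given in the sources used here. Beside them the authors deposited a log2 fold change, with a placeholder where it is infinite, and a test statistic, used here as a score. Their deposited p-values come with q-values, which matched a Benjamini-Hochberg adjustment over the 15387 tested entries.

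The implied SE is the size of the log2 fold change divided by that of the statistic, and 95% intervals assume a normal distribution. Entries were named from RefSeq (22999) and GENCODE (121), and 170 stayed unnamed. Each gene took its tested entry, then the highest mean FPKM. All members were named, with full statistics for the 8 lowest unadjusted p. In each other list the 2 lowest p and the 2 highest FPKM were named, and the third imprinted gene with a low p, Xist, Y-linked genes and genes that overlap a member were added after their values were seen. Members and lists were chosen with earlier results of these data known. Alternatives covered thresholds, low FPKM, pseudocounts, centring and joined entries. The adjustment was tested on simulated data. Python 3.11.15, numpy 2.4.6, pandas 2.3.3, scipy 1.17.1 and matplotlib 3.10.9 were used.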

Additional observations from a re-analysis of the deposited data

How the results depend on the processing

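The counts of 0 genes higher and 0 lower at q under 0.05 were the same at q under 0.1 and with the adjustment limited to entries of at least 1 or 5 FPKM. They were also the same after centring and with joined entries included, the last chosen after seeing the data. The settings of q under 0.01 and of every entry of a gene also gave 0 but could not differ. The first is stricter, and each gene has a single entry. At an unadjusted p under 0.05, 2 genes were higher and 0 lower. Median log2 fold changes ranged over the alternatives from 0.03 to 0.08 for all members, from 0.05 to 0.11 for paternal and from -0.0068 to 0.02 for maternal genes. The negative value came from including joined entries. Leaving out entries with an implied SE over 1, also chosen after seeing the data, lies within these ranges. Of 145 single-gene values 1 moved by its SE or more, Magel2 at 0.58 with a pseudocount of 1 FPKM, and centring changed the sign of 2 genes near 0, Rian (0.01) and Sgce (0.01). Many of the 145 could not move. A limit on level, or FPKM summed over the entries of a gene, leaves a gene with a single entry as it was. Centring shifts every gene by the same amount, below any SE of the members. For single genes only the pseudocounts could therefore move a value by its SE. No paired analysis was possible because the table holds 1 pooled value per genotype, and for the same reason leaving out a replicate could not be run. Depth is not given, so what it limits is unknown.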

Other observations

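Between Dlk1 and Dio3 the table also holds 56 separate short entries for microRNAs and small nucleolar RNAs of the maternal transcript. Of these 31 are listed at 0 FPKM in both genotypes, and 24 were tested. With Cuffdiff, 0 of the 24 had a q under 0.05 and 0 had an unadjusted p under 0.05 in the authors' deposited table, the lowest p being 0.126. Of the tested entries 5 are listed at 0 in mutant hearts only and 6 in control hearts only. The 13 with a finite fold had implied SEs from 2.79 to 58.0, so these entries give no usable comparison.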
